A study of Rattus norvegicus with 6 samples.

Results

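The antioxidant and redox genes associated with the transcription factor NRF2 were followed in rat aortic smooth muscle cells exposed to components of extracellular traps. The set was defined by a list of gene symbols and comprised 35 genes, all of which were among the 22574 symbols of the count table. RNA was sequenced in 6 libraries of RASMCs, smooth muscle cells taken into primary culture from the aortas of male Sprague-Dawley rats. In 3 libraries the cells had received 0.03 μM of histone H3 in its citrullinated form (H3CIT) and 300 ng/ml of double-stranded DNA (dsDNA), and in the other 3 libraries, the controls, they had received bovine serum albumin. The exposure time of the sequenced cells was not given in the sources used here. For its in vitro experiments in general, the study states that cells of the same rat went into separate wells as replicates. The number of rats behind these 6 libraries was not given. The p-values therefore measure the spread between libraries, which may be wells of the same rat rather than different animals.

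NRF2, encoded by Nfe2l2, is held by KEAP1, which presents it to a cullin-3 ubiquitin ligase for degradation. Oxidants and electrophiles modify KEAP1, NRF2 then accumulates, and with small MAF proteins it binds antioxidant response elements in the promoters of genes for glutathione synthesis, thioredoxin recycling, NADPH supply, iron storage and detoxification. NRF2 is controlled to a large part at the level of the protein, so the Nfe2l2 transcript alone does not measure its activity, and the transcripts of its targets are the usual readout. In the vessel wall, smooth muscle cells make superoxide and hydrogen peroxide mainly through NADPH oxidases, NOX4 among them, and remove them with superoxide dismutases, catalase, glutathione peroxidases and peroxiredoxins.

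The sequence to which NRF2 binds can be seen in several members. RefSeq promoters of the rat assembly GRCr8, from 250 bases before to 50 bases after the start of transcription, were at hand for 29 of the 35 members. The core of the antioxidant response element was searched for as TGACNNNGC on both strands. It was found in 8 of the 29 members (27.6%) and in 13.1% of all 27457 genes with a promoter. These 5 windows are shown because their core lies wholly before the start of transcription. Each reads 5′ to 3′ in the direction of the gene, with the core in capitals, which appears as its reverse complement where it lies on the other strand.
Gclm: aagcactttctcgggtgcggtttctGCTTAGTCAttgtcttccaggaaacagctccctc
Gstp1: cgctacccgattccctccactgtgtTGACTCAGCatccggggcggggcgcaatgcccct
Prdx1: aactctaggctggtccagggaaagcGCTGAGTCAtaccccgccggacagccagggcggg
Sod2: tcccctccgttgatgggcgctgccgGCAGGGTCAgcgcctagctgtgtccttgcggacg
Txnrd1: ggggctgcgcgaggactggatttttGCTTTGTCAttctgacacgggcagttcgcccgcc
In GRCr8 the windows lie at chr2:213031938-213031996 on the plus strand for Gclm, chr1:210769733-210769791 on the minus strand for Gstp1, chr5:135383746-135383804 on the plus strand for Prdx1, chr1:50050170-50050228 on the minus strand for Sod2 and chr7:22755949-22756007 on the minus strand for Txnrd1. The cores of Gstp1 and Prdx1 also hold the AP-1 motif TGANTCA, which was present in 5 of the 29 members and in 8.04% of all genes with a promoter. The motif GGGNNNTTCC, of the kind bound by NF-kB, was present in 4 of the 29 members and in 5.77% of all genes. In Nfe2l2, Prdx4 and Prdx5 the core lay at or after the start of transcription. A match is a description of the letters and not a measured binding site.

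Gene counts summed to between 17573905 and 18742395 per library. Levels are given as CPM, counts scaled to a common library size with TMM factors. The count filter of edgeR kept 12591 genes, among them 34 of the 35 members, and a two-sided quasi-likelihood test of edgeR compared the groups, with p-values adjusted by Benjamini-Hochberg over all 12591. The reads of replicate libraries differed by more than counting noise in each of the 6 pairs within groups, most between control replicates 1 and 3 (chi-square per gene 6.97, against 3.33 between control replicates 1 and 2). Of the smooth muscle markers all 10 were measured. Their summed level was 9402 to 9949 CPM after H3CIT+dsDNA and 12182 to 13060 CPM in controls. Acta2, with a mean of 3115 against 5025 CPM, made the largest part of that difference. Only 4 of the 10 (Acta2, Tagln, Cnn1 and Smtn) were lower at an edgeR adjusted p under 0.05. The rest did not pass, with folds of 1.11 for Cald1, 1.04 for Myh11 and 0.956 to 0.966 for Myl9, Tpm2, Lmod1 and Des. The summed level of 14 macrophage markers was 76.9 to 79.0 CPM after H3CIT+dsDNA and 77.8 to 81.0 CPM in controls, most of it from Cd14 and Csf1r. Of these 14 only 8 had enough counts to be tested, and none of the 8 passed. The leukocyte gene Ptprc had at most 1 count in any library, and the macrophage gene Aif1, also below the filter, had 2 to 3 counts in controls and 8 to 9 in the other group. The 10 endothelial markers summed to 36.9 to 40.0 CPM and 35.1 to 43.6 CPM, and the 6 fibroblast markers to 2.64 to 4.14 CPM and 2.59 to 4.93 CPM, in the same order, with none of the 5 and 2 that were tested past the threshold. The part of other cell types in the results was not tested. In such bulk samples a change in the number of cells of a type and a change of RNA per cell cannot be told apart.

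None of the 34 members tested passed an adjusted p of 0.05 in edgeR's quasi-likelihood test, where 2.2% of all genes tested did so (277 genes, 244 higher and 33 lower). Without H3CIT+dsDNA replicate 1 these were 147 higher and 17 lower, without control replicate 1 the higher were 154, and without control replicate 3 the lower were 57. DESeq2 and limma-voom also called 0 members. Applied to 34 genes, 2.2% is fewer than 1 gene, so the count of 0 is near the background. At an unadjusted p under 0.05 there were 6 members, 5 lower and 1 higher. These were 17.6% of those tested, against 13.9% of all genes and 18.9% of the 4031 genes with a mean of at least 50 CPM. By direction, the 5 lower members were 14.7% of those tested, where 5.30% of all genes and 9.97% of those 4031 genes were lower. The 1 higher member was 2.94% of those tested, against 8.64% of all genes and 8.91% of those 4031 genes. What the counts do give is a narrow range for most of the differences between these groups of libraries. Fitted log2 fold changes ran from -0.17 (Gclm) to 0.25 (Sod2), and for 32 of the 34 members the 95% interval of the fold lay wholly inside a 1.5-fold change in either direction. For 26 members it lay inside a 1.2-fold change. The members outside the wider limit were Sod2 and Gpx3.

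**Figure D1:**
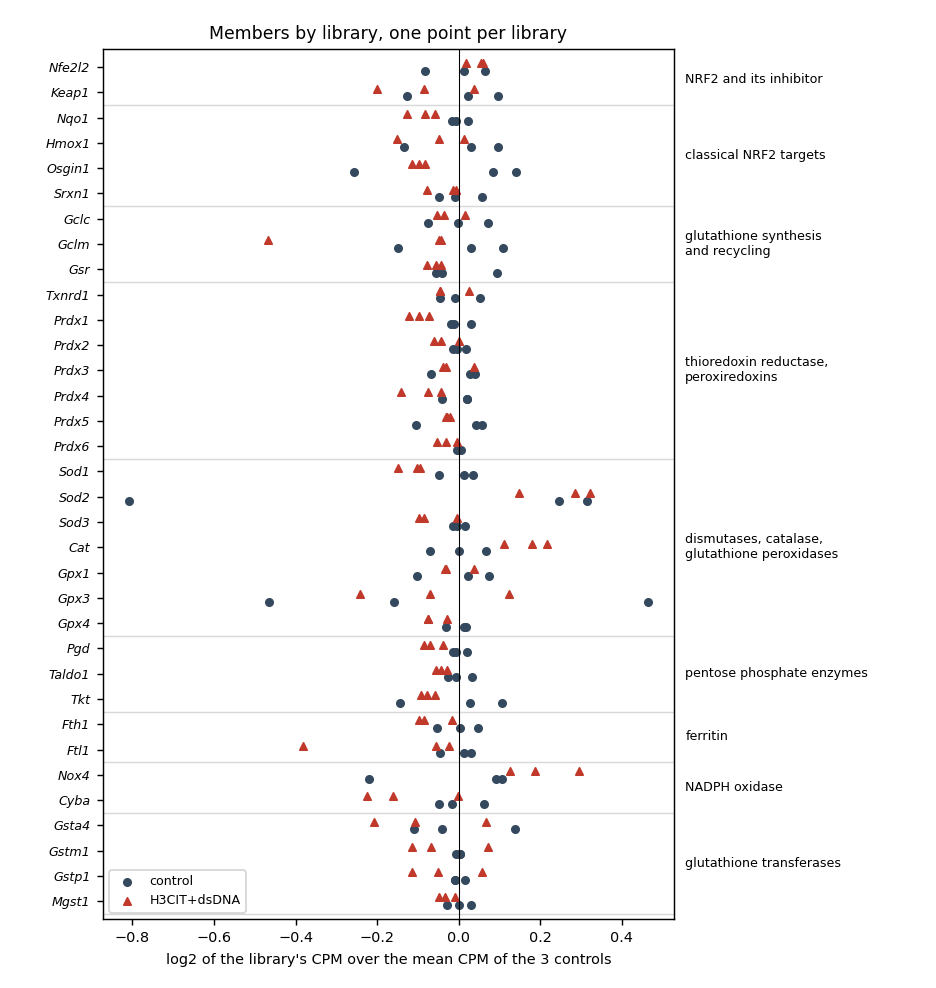
The 34 members tested are shown by role, with one point per library (circles, 3 control libraries; triangles, 3 H3CIT+dsDNA libraries) at the log2 of its CPM over the mean CPM of the controls. Most points lie close to 0 in both groups, and control replicate 3 of Sod2 (42.3 CPM) stands far to the left of the other 5 libraries.

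Neither gene at the head of the pathway passed the test. Nfe2l2 stood at 179, 174 and 179 CPM after H3CIT+dsDNA and at 174, 180 and 163 CPM in controls, a fold of 1.03 (95% interval 0.968 to 1.098). The groups overlapped. Keap1, its inhibitor, stood at 45.6, 41.9 and 38.7 CPM against 40.7, 47.5 and 45.1 CPM, a fold of 0.946 (95% interval 0.849 to 1.05), with the groups again overlapping.

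Of the transcripts usually read as the output of NRF2, Hmox1, Nqo1, Srxn1 and Osgin1 had fitted folds between 0.935 and 0.978. None of these 4 passed the test. Other targets, among them Gclm, Txnrd1 and Slc7a11, are described below. Hmox1, which encodes the haem-degrading enzyme haem oxygenase 1, stood at 83.5, 93.6 and 89.8 CPM after H3CIT+dsDNA and at 99.1, 94.7 and 84.5 CPM in controls. The libraries of both groups were interleaved, and the fold was 0.959 (95% interval 0.876 to 1.05, edgeR adjusted p = 0.712). Nqo1, the quinone reductase, stood at 194, 204 and 200 CPM against 210, 211 and 216 CPM. All 3 H3CIT+dsDNA libraries lay below all controls, as for 8.43% of all genes tested, and the fold was 0.940 (95% interval 0.892 to 0.990, edgeR adjusted p = 0.264). Srxn1, which encodes sulfiredoxin, the enzyme that repairs overoxidised peroxiredoxins, had a fold of 0.978 (95% interval 0.916 to 1.04). Osgin1, an oxidative stress-induced growth inhibitor, had a fold of 0.935 (95% interval 0.802 to 1.09), with controls at 16.5, 15.9 and 12.6 CPM on both sides of the 13.8, 14.0 and 14.2 CPM of the H3CIT+dsDNA libraries. Among these 4 targets the upper bound of the interval was at most 1.09.

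None of the 3 genes of glutathione supply passed the test. Gclc, the catalytic subunit of glutamate-cysteine ligase, had a fold of 0.983 (95% interval 0.916 to 1.06), and Gsr, which encodes glutathione reductase, had 0.960 (95% interval 0.893 to 1.03). Gclm, the modifier subunit of the ligase, stood at 12.4, 12.4 and 9.25 CPM after H3CIT+dsDNA and at 13.1, 13.8 and 11.5 CPM in controls. Replicate 3 was the lowest library of each group, and the fold of 0.886 (95% interval 0.739 to 1.06, edgeR adjusted p = 0.568) rested largely on H3CIT+dsDNA replicate 3, without which the log2 fold change was -0.05 rather than -0.17.

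In the thioredoxin system all 7 members had a fitted fold below 1, although those of Txnrd1, Prdx3 and Prdx5 lay above 1 without control replicate 1. The direction of Prdx3 turned in 4 of 15 alternative fits. Prdx1, the cytosolic peroxiredoxin with an antioxidant response element core 135 bases before its start, stood at 358, 364 and 370 CPM after H3CIT+dsDNA and at 397, 386 and 384 CPM in controls. The groups did not overlap, and the fold was 0.935 (95% interval 0.890 to 0.982, unadjusted p = 0.0112, edgeR adjusted p = 0.191). Prdx4, the peroxiredoxin of the endoplasmic reticulum, had a fold of 0.942 (95% interval 0.890 to 0.996, edgeR adjusted p = 0.323), and its groups did not overlap either. Txnrd1, the cytosolic thioredoxin reductase and a textbook NRF2 target, was at 339, 323 and 323 CPM against 346, 331 and 323 CPM, a fold of 0.985 (95% interval 0.932 to 1.04). The remaining 4, Prdx2, the mitochondrial Prdx3, Prdx5 and Prdx6, had folds of 0.976, 0.993, 0.981 and 0.979, with the groups overlapping in each.

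**Figure D2:**
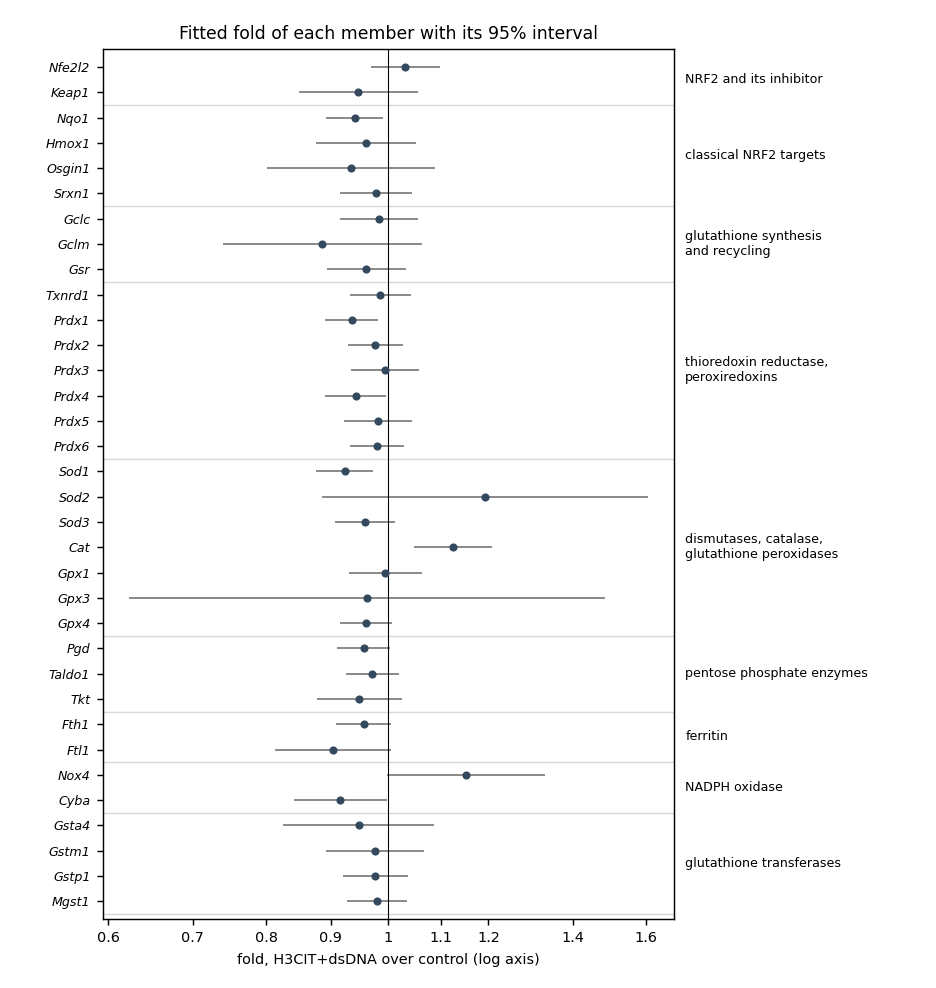
The fitted fold of each tested member, H3CIT+dsDNA over control, is drawn on a log axis with its 95% interval from edgeR's quasi-likelihood fit (n = 3 libraries per group). The intervals of 28 members span 1, those of 5 lie below 1, and that of Cat lies above 1 (1.05 to 1.21).

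Among the enzymes that remove superoxide and peroxide, log2 fold changes ran from -0.12 (Sod1) to 0.25 (Sod2), the upper end resting on a single control library. Cat, which encodes catalase, the peroxisomal enzyme that splits hydrogen peroxide, stood at 108, 100 and 105 CPM after H3CIT+dsDNA and at 88.3, 92.8 and 97.1 CPM in controls. All 3 H3CIT+dsDNA libraries lay above all controls, as for 10.7% of all genes tested. The fold was 1.12 (95% interval 1.05 to 1.21, log2 fold change 0.17 with a standard error, SE, of 0.05, unadjusted p = 0.00350), and the adjusted p of 0.0998 from edgeR missed the threshold. The adjusted p fell to 0.0493 where the dispersion was estimated robustly and to 0.0421 without control replicate 3, and between 0.0421 and 0.380 over all 15 alternatives. Catalase was the only member to be called in any of them.

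Neither Sod1 nor Sod2 passed the test. Sod1, the cytosolic copper-zinc superoxide dismutase, stood at 338, 351 and 349 CPM after H3CIT+dsDNA and at 384, 378 and 362 CPM in controls, without overlap. Its fold was 0.923 (95% interval 0.876 to 0.973, log2 fold change -0.12, SE 0.03, unadjusted p = 0.00606, edgeR adjusted p = 0.137). Sod2, the manganese superoxide dismutase of mitochondria, is also a well-known target of NF-kB. It stood at 92.5, 90.3 and 82.0 CPM after H3CIT+dsDNA and at 92.1, 87.8 and 42.3 CPM in controls. Of the 6 libraries 5 lay within a narrow range, and control replicate 3 stood far below them, with 785 counts against 1644 and 1630 in the other controls. The fitted fold of 1.19 (95% interval 0.886 to 1.61, edgeR adjusted p = 0.612) came from that library. Without control replicate 3 the log2 fold change was -0.03 rather than 0.25. Sod3, the extracellular dismutase, had a fold of 0.958 (95% interval 0.907 to 1.01).

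The 3 glutathione peroxidases had fitted folds between 0.960 and 0.994, none past the test, and the direction of Gpx1 and Gpx3 turned when single libraries were omitted. Gpx1, the abundant cytosolic enzyme, had a fold of 0.994 (95% interval 0.930 to 1.06), and its log2 fold change ran from -0.06 without control replicate 3 to 0.03 without control replicate 1. Gpx4, which reduces lipid peroxides in membranes and protects from ferroptosis, had a fold of 0.960 (95% interval 0.915 to 1.01). Gpx3, the secreted plasma enzyme, was close to the filter with 21 to 40 counts per library, and its fold of 0.962 (95% interval 0.623 to 1.48) covers changes that could not be detected at that depth. The log2 fold change of Gpx3 was 0.25 without control replicate 3 and -0.24 without control replicate 2.

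**Figure D3:**
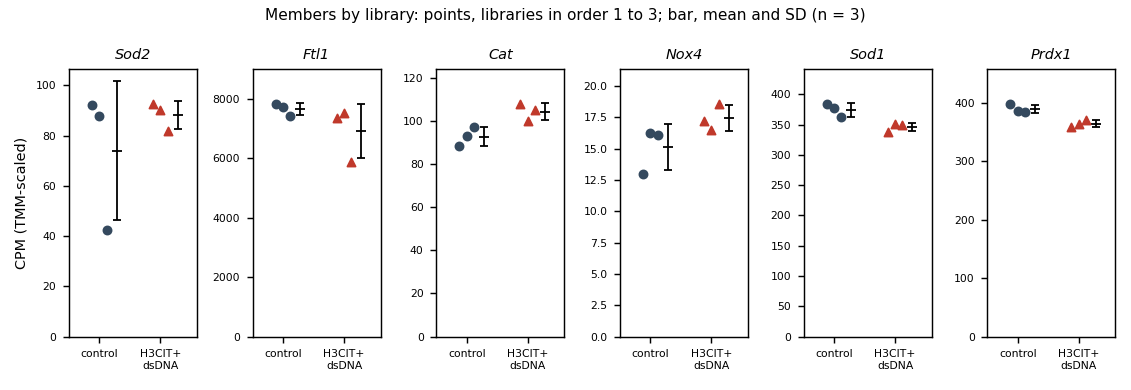
CPM of 6 members by library, with controls as circles and H3CIT+dsDNA libraries as triangles, each in the order of replicates 1 to 3, and bars for the mean and SD (n = 3). The axes start at 0. One control library of Sod2 (42.3 CPM) and one H3CIT+dsDNA library of Ftl1 (5879 CPM) stand apart from the rest of their group, whereas the groups of Cat, Nox4, Sod1 and Prdx1 do not overlap.

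The enzymes of the pentose phosphate pathway, which supplies the NADPH that glutathione and thioredoxin reductases consume, had fitted folds below 1, none past the test. Pgd, which encodes 6-phosphogluconate dehydrogenase, stood at 288, 294 and 285 CPM against 301, 299 and 307 CPM in controls, a fold of 0.956 (95% interval 0.910 to 1.003, edgeR adjusted p = 0.398). Taldo1, the gene of transaldolase, had a fold of 0.971 (95% interval 0.925 to 1.02). For both genes all H3CIT+dsDNA libraries lay below all controls. Tkt, the gene of transketolase, had a fold of 0.948 (95% interval 0.878 to 1.02), with the groups overlapping.

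Ferritin, which stores iron in a form that cannot feed the Fenton reaction, accounted for most counts of the set. The heavy and light chain genes Fth1 and Ftl1 together took 1.005% to 1.19% of the counts of the H3CIT+dsDNA libraries and 1.16% to 1.22% of those of the controls, whereas all 35 members together took 1.80% to 2.01% and 1.96% to 2.05%. Ftl1 stood at 7373, 7536 and 5879 CPM after H3CIT+dsDNA and at 7829, 7741 and 7430 CPM in controls. H3CIT+dsDNA replicate 3 was the low library. The fold was 0.904 (95% interval 0.813 to 1.004, edgeR adjusted p = 0.383), and without that library the log2 fold change was -0.04 rather than -0.15. Fth1 had a fold of 0.956 (95% interval 0.908 to 1.01, edgeR adjusted p = 0.420). Ferritin genes have near-identical copies in the genome, so some reads may not be assignable to a single gene. How such reads were counted was not given in the sources used here.

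The oxidant-producing side was represented by 3 members. Nox4, which encodes the constitutively active NADPH oxidase of vascular smooth muscle, stood at 17.2, 16.5 and 18.6 CPM after H3CIT+dsDNA and at 13.0, 16.3 and 16.1 CPM in controls. The groups did not overlap, although replicate 2 after H3CIT+dsDNA and control replicate 2 lay close together, and the fold was 1.15 (95% interval 0.997 to 1.33, unadjusted p = 0.0536, edgeR adjusted p = 0.371). Without control replicate 1, the low library, the log2 fold change was 0.11 rather than 0.20. Cyba, which encodes p22phox, the membrane partner of NOX4, stood at 90.0, 105 and 94.1 CPM against 110, 104 and 102 CPM. Its fold was 0.916 (95% interval 0.841 to 0.997, unadjusted p = 0.0439, edgeR adjusted p = 0.340), and the groups overlapped. Cybb, the phagocyte oxidase NOX2, had 0, 2 and 0 counts after H3CIT+dsDNA and 0, 1 and 0 counts in controls. It was the member that did not pass the filter, and a difference in it was not detectable at this depth.

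The glutathione transferases, which conjugate glutathione to electrophiles, had fitted folds between 0.947 and 0.979, and none passed the test. Gstp1, with an antioxidant response element core 61 bases before its start, stood at 1910, 2055 and 1827 CPM after H3CIT+dsDNA and at 1999.7, 1965 and 1966 CPM in controls, a fold of 0.977 (95% interval 0.920 to 1.04). Gsta4, the enzyme for the lipid peroxidation product 4-hydroxynonenal, had a fold of 0.947 (95% interval 0.826 to 1.09), Gstm1 had 0.976 (95% interval 0.893 to 1.07) and the microsomal Mgst1 had 0.979 (95% interval 0.928 to 1.03). Gstm1 belongs to a family of similar sequences, so some of its reads may not be assignable to a single gene either.

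Although no member passed the test, most fitted folds lay slightly below 1. Of the 34 tested, 30 had a log2 fold change below 0, with a median of -0.06, where 50.6% of all genes tested lay below 0, with a median of -0.00130. Abundant genes as a whole leaned the same way. Among the 4031 genes with a mean of at least 50 CPM, 61.0% lay below 0 and the median was -0.02. All H3CIT+dsDNA libraries lay below all controls in 6 members (Nqo1, Prdx1, Prdx4, Sod1, Pgd and Taldo1), 17.6% of those tested, against 8.43% of all genes and 14.3% of the abundant genes. The reverse was seen in 2 members, Cat and Nox4, 5.88% of those tested, against 10.7% of all genes and 9.68% of the abundant genes. In either direction 8 of 34 members had no overlap of groups, against 19.1% of all genes and 966 of the 4031 abundant genes. The members that lay above 0 were Nfe2l2, Sod2, Cat and Nox4. With library size alone in place of TMM, 28 of 34 lay below 0, but that scaling moved all genes alike, to a median of 0.02 with 43.2% below 0, and 30 of 34 members lay below the median of all genes under both scalings. With each library left out in turn between 25 and 30 of 34 lay below 0, the fewest without control replicate 1. In 9 of the 34 the sign turned on the omission of at least 1 library (Gclc, Txnrd1, Prdx3, Prdx5, Sod2, Gpx1, Gpx3, Gstm1 and Gstp1). Genes are not independent replicates, and these shares are given as a description. The 8 members with an antioxidant response element core in the promoter window had a median log2 fold change of -0.03, and the 20 tested members with a promoter and no core had -0.05. The 8 include Nfe2l2, Prdx4 and Prdx5, whose core lay at or after the start. Members with no core in the window may hold one elsewhere, so the split does not separate targets of NRF2 from other genes.

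**Figure D4:**
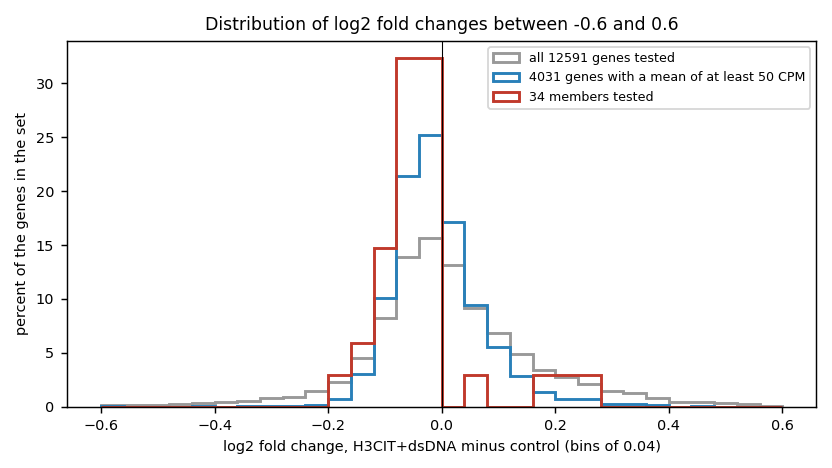
The percent of genes in each bin of log2 fold change (H3CIT+dsDNA minus control) is drawn for all 12591 genes tested, for the 4031 genes with a mean of at least 50 CPM and for the 34 members, over the range from -0.6 to 0.6. The members form a narrow peak just below 0, with a median of -0.06, and the larger changes among all genes lie outside the range of the members.

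Most members varied little between the libraries of a group. The coefficient of variation of CPM had a median of 2.79% after H3CIT+dsDNA and 3.84% in controls, against 5.54% and 5.69% over all genes tested, many of which have fewer counts. It was under 10% in 31 of 34 members after H3CIT+dsDNA, the exceptions being Gclm, Ftl1 and Gpx3. In controls it was under 10% in 30 of 34, and the largest value was 37.3% for Sod2.

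A wider list of 128 genes of the same pathways was drawn up by function, with earlier results of these data known. Its counts are therefore given as a description. It held 103 genes that were tested. Of these 3 had an adjusted p under 0.05, all higher after H3CIT+dsDNA, and 0 were lower, against 1.94% and 0.262% of all genes tested. Abcc4, which encodes the drug and cyclic nucleotide exporter MRP4, rose from 18.5, 12.6 and 17.9 CPM in controls to 35.5, 34.7 and 34.6 CPM. Every H3CIT+dsDNA library lay above every control, and the log2 fold change was 1.10 (SE 0.11, edgeR adjusted p = 3.35e-05). Btrc rose from 565, 557 and 587 counts in controls to 1027, 1000 and 995 counts, a log2 fold change of 0.85 (SE 0.05, edgeR adjusted p = 1.57e-07). It encodes the F-box protein beta-TrCP, which marks phosphorylated NRF2 for degradation by a route that does not need KEAP1 and also targets IkB and beta-catenin. Slc7a11, the cystine importer xCT that feeds glutathione synthesis and a target of both NRF2 and ATF4, rose from 40.2, 42.4 and 40.5 CPM to 52.9, 49.4 and 53.1 CPM. Its log2 fold change was 0.34 (SE 0.05, edgeR adjusted p = 0.00230). All 3 kept their call in all 15 alternatives. The search covered the 105 genes of the wider list with a promoter at hand, and it gave no element core for these 3. The absence of a match does not show that they lack the element.

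**Figure D5:**
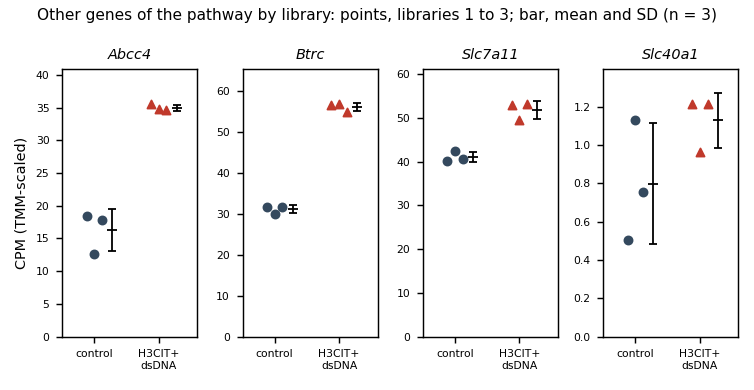
CPM by library for 4 genes of the wider list, controls as circles and H3CIT+dsDNA libraries as triangles, with bars for the mean and SD (n = 3) and axes from 0. The groups of Abcc4, Btrc and Slc7a11 are apart, whereas those of Slc40a1, at most 1.21 CPM in any library, overlap.

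The other 100 genes of the wider list that were tested did not pass. Slc40a1, which encodes the iron exporter ferroportin, had 22, 17 and 22 counts after H3CIT+dsDNA and 9, 21 and 14 counts in controls (log2 fold change 0.50, SE 0.34, edgeR adjusted p = 0.553). Its log2 fold change was 0.26 without control replicate 1 and 0.84 without control replicate 2. Chosen after their values were seen, 3 further genes lay near the threshold or rested on single libraries. Sesn3, which encodes sestrin 3, stood at 256, 230 and 243 CPM against 209, 215 and 220 CPM (log2 fold change 0.18, edgeR adjusted p = 0.0515) and was called in 7 of 15 alternatives. Cul3, the cullin of the KEAP1 ligase, stood at 39.8, 40.9 and 43.5 CPM against 33.7, 36.5 and 36.2 CPM (log2 fold change 0.22, edgeR adjusted p = 0.0846) and was called in none of them. Mgst3, a microsomal glutathione transferase, stood at 174, 248 and 179 CPM against 252, 254 and 245 CPM (log2 fold change -0.32, edgeR adjusted p = 0.150). Its H3CIT+dsDNA replicate 2 was at the level of the controls, and without that library the log2 fold change was -0.50 (edgeR adjusted p = 1.29e-05), and with no filter on low counts the adjusted p was 0.0447. The 22 listed genes that were not tested had at most 14 counts in any library, among them the phagocyte oxidase subunits Ncf1 and Ncf4 and the inducible nitric oxide synthase Nos2, and 3 symbols of the list had no row.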

How the data were processed

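Stranded mRNA libraries were made by the authors, who aligned the reads to the rat assembly Rnor6.0 using TopHat 2.1.1 and used HTSeq for the raw count of reads on each gene. The deposited values are whole-number counts per gene symbol, taken here as that output, since the files do not name the tool. The submitters' processing notes also name Cufflinks 2.2.1 and Cuffdiff. The strand setting of the counting was not given in the sources used here. Groups came from the sample titles, and all 6 columns were used.

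In R 4.3.3 with edgeR 4.0.16, filterByExpr removed genes with low counts, TMM factors scaled the libraries, and a quasi-likelihood F test compared the groups at an adjusted p of 0.05. SE is the size of the fitted log2 coefficient over the root of F, and the 95% interval of each gene uses the moderated degrees of freedom. CPM use the TMM-scaled library size of the tested genes. Alternatives were 3 other scalings, DESeq2 1.42.0, limma-voom (limma 3.58.1), 2 other count filters, robust dispersion, the replicate number as a block, and the omission of each library. In simulated counts edgeR called 95 of 100 genes changed by 1.5 and 62 of 100 changed by 0.5 on the log2 scale. Beside these true calls there were 14 false calls, among 12497 genes tested. Both sizes exceed every fitted change of the members (largest 0.25), so the power for such small changes was not measured.

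The members, the wider list and the markers were chosen with earlier results of these data known. All members are named, and of the wider list the called genes and the 5 largest absolute log2 fold changes, of which 1 is not reported here. RefSeq (GRCr8) served for promoter sequences only. The labels give no batch.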

Additional observations from a re-analysis of the deposited data

How the results depend on the processing

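Of 510 values of the 34 tested members under the 15 alternatives, 508 kept their side of the threshold, and the 2 that did not were both of Cat. The number of members called, 0, became 1 where the dispersion was estimated robustly, and ranged from 0 to 1 when single libraries were omitted, the 1 coming without control replicate 3. The number of called genes of the wider list, 3, was 5 when the count filter was dropped, and 3 to 5 when single libraries were omitted, the 5 without H3CIT+dsDNA replicate 2. Over all genes the number called, 277, ran from 164 (without H3CIT+dsDNA replicate 1) to 357 (without control replicate 3) in those fits; it was 184 without control replicate 1. The number lower, 33, was 51 with DESeq2, 58 with no count filter and 50 with robust dispersion. The cause was not tested. With a replicate block 0 members, 3 genes of the wider list and 212 of all genes were called. The numbers give no pairing of the libraries, since same-numbered libraries had correlations of -0.06, -0.01 and 0.04 between their departures from the group mean. Each other scaling moved the median log2 fold change over all genes by at most 0.02 from its value with TMM. These shifts went in both directions, to -0.018 at the lowest (upper quartile) and 0.018 at the highest (library size). Depth limits Cybb and Gpx3. For a single gene, 3 libraries against 3 allow no exact permutation p under 0.1.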
